A study of Mus musculus with 10 samples.

Results

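The change between d0 and d3 was followed in 5 lines of mouse embryonic stem cells (mESCs), as 5 pairs of libraries matched by line. These 10 libraries are all 10 of the series, the 5 labelled d3 set against the 5 labelled d0, with 1 column of signals each. The series text calls the profiles duplicated, and whether a column holds 1 array or a mean of several is not given in the sources used here, so a column is called a library or array below. All lines derive from G-CCE, a feeder-free line cultured on gelatin in serum with leukemia inhibitory factor (LIF) at d0 and after 3 days without LIF at d3. They are WT, which was not transfected, MMTR KD, made with a lentivirus that carries a short hairpin RNA against MMTR/Dmap1, and MMTR-F, MMTR-C and MMTR-N, transfected to overexpress the full-length protein, its C-terminal part or its N-terminal part. For differentiation, the paper's methods describe hanging drops, with the cell aggregates then moved to bacterial dishes in medium without LIF. By these methods d3 differs from d0 in aggregation and dish as well as in LIF, and these cannot be told apart here. MMTR/Dmap1 is a subunit of the Tip60-p400 chromatin remodeling complex. No label says that a line is more than 1 established culture, so the pairs are not replicates of WT, and the spread in every test below is the spread between lines in their change over the days.

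A probe was kept where its detection p-value was at most 0.05 on at least 5 arrays, which left 17775 of 45281, and their log2 signals were quantile normalized. Differences are d3 minus d0 on this log2 scale, where 1 is a doubling. Median signals before normalization were 218 to 244 at d0 and 337 to 347 at d3, the undetected probes moved with them (203 to 226 and 314 to 323), and 40.1% to 41.6% of probes were detected at d0 against 36.9% to 39.1% at d3. The days and a difference between array runs cannot be told apart in this design. Dmap1, the targeted gene, read 10.59, 10.78, 10.48, 12 and 10.52 at d0 and 10.42, 10.38, 10.18, 12 and 10.34 at d3, with WT first, then MMTR KD and then the F, C and N lines. Values of the 5 libraries of a day are given in this order below. MMTR-C stood above all other libraries on both days. On this probe the libraries labelled MMTR KD, MMTR-F and MMTR-N did not show the lower or higher signal of their names, so each is called by its label. The region that the probe reads is not given in the sources used here. A construct that lacks this region would go unread, so the probe alone cannot check the MMTR-N line. The paper reports immunoblots that show expression of the F, N and C constructs. It also reports higher MMTR/Dmap1 binding at promoters in overexpressing cells and lower binding in KD cells.

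LIF keeps mouse ESCs in the naive state of the preimplantation epiblast. It acts through its receptor and the kinase Jak1 on the transcription factor Stat3, which maintains naive factors such as Klf4 and Tfcp2l1 and its own inhibitor Socs3. Without LIF, cells leave this state and pass through one that resembles the postimplantation epiblast, with Otx2, Fgf5 and Dnmt3b, before genes of the germ layers appear.

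Of what was measured, 48.7% moved with the day. Of 17775 probes, 4259 were higher at d3 (24.0%) and 4398 lower (24.7%) by limma at an adjusted p under 0.05, and 7940 of these 8657 calls (91.7%) had the same sign in all 5 lines. Most changes were small on this scale, without background correction, and the sizes depend on it. With controls inferred for such a correction, a setting chosen after seeing the data, 6786 (MMTR-F) to 7638 (MMTR-C) probes per line moved by 0.5 or more. In the values used here the same lines had 2373 and 3231. Only 257 higher and 272 lower probes moved by 1 or more, 31 and 39 by 2 or more, and 71.8% of the called probes moved by less than 0.5. Counted by gene, with the brightest kept probe standing for each of 9401 symbols, 2441 rose (26.0%) and 2382 fell (25.3%), and 2453 (26.1%) had d0 and d3 values that did not overlap. In bulk samples fewer cells of a type and less RNA per cell cannot be told apart. The median difference over all genes was 0.01 and the median size 0.20. Quantile normalization gives all arrays the same distribution, so the near-equal rises and falls and this median follow in part from the scaling. Without normalization 87.4% of calls were higher and the median of all genes was 0.27.

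The 15 largest rises led with a ligand of the postimplantation epiblast and a neuronal motor. Fgf5, a growth factor that marks the primed epiblast, read 8.13, 8.88, 7.98, 8.18 and 8.15 at d0 and 12.43, 12.24, 11.21, 12.10 and 11.25 at d3 (difference 3.58, standard error 0.17, limma adjusted p = 1.2e-05). All d3 libraries lay more than 2 log2 units above all d0 libraries, of which 1 of 5 detected the probe. Kif1a, a kinesin that carries synaptic vesicle precursors, read 9.57, 10.81, 10.36, 9.41 and 9.29 at d0 and between 13.23 and 13.71 at d3 (3.57 ± 0.18, adjusted p = 1.7e-05). Its d3 libraries were close together, and MMTR KD and MMTR-F were the highest at d0. The other 13 were Ddit4 (2.49), an inhibitor of mTORC1 that responds to stress, Car4 (2.41), a carbonic anhydrase, Slc40a1 (2.39), the iron exporter ferroportin, Zmynd8 (2.38), a chromatin reader, Kcnk1 (2.33), a potassium channel, Pou3f1 (2.32), Pdpn (2.31), a membrane mucin, Sall2 (2.29), Otx2 (2.28), Sox11 (2.22), a factor of neural progenitors, Pdlim3 (2.21), Cldn6 (2.18), an embryonic claudin, and Vrtn (2.18).

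Of the 15 largest falls, 5 (Mras, Gbx2, Klf4, Tbx3 and Nr5a2) are on the list of naive factors. Mras, a small GTPase, fell from 11.32, 13.18, 12.11, 12.71 and 12.25 to 8.52, 9.22, 8.41, 8.80 and 8.23 (-3.68 ± 0.16, adjusted p = 1.1e-05). Laptm5, a lysosomal membrane protein, read 13.04 to 13.88 at d0 and 8.81, 9.55, 10.72, 9.23 and 10.81 at d3 (-3.59 ± 0.30, adjusted p = 8.4e-05). MMTR-F and MMTR-N kept the most Laptm5 signal at d3, and no d3 library reached a d0 library for either gene. The others were Emp1 (-3.39), an epithelial membrane protein that 1 of 5 d3 libraries detected, Gbx2 (-3.26), Klf4 (-3.07), Msc (-2.92), Socs3 (-2.91), Lgals3 (-2.90), the galectin-3 gene, Lama1 (-2.75), a laminin chain of basement membranes, Tbx3 (-2.72), Jam2 (-2.64), a junctional adhesion molecule, Krt17 (-2.57), a keratin, Spink1 (-2.57), a trypsin inhibitor, Bmp4 (-2.53) and Nr5a2 (-2.48), a nuclear receptor that can maintain Pou5f1. Of the 3 probes kept for Nr5a2, 1 was near 0 (0.02).

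**Figure D1:**
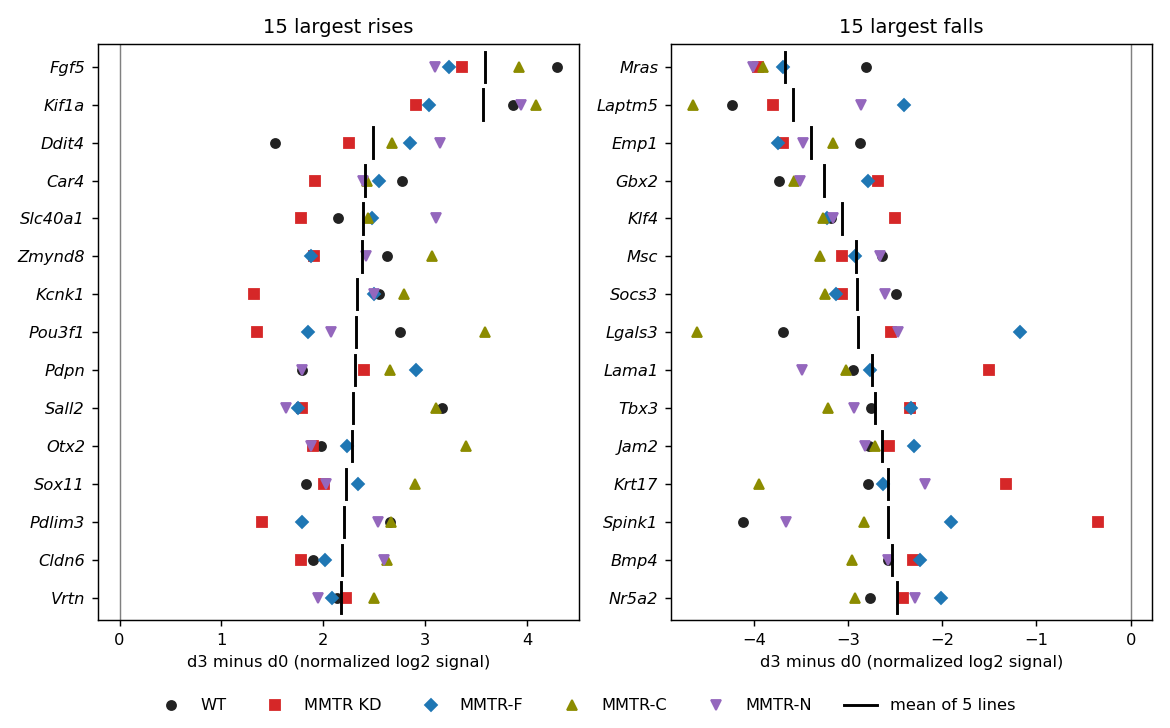
Log2 difference between d3 and d0 in each of the 5 lines (symbols) for the 15 largest rises and the 15 largest falls, with the mean over the lines as a black bar. Rises range from 2.18 for Vrtn to 3.58 for Fgf5 and falls from -2.48 for Nr5a2 to -3.68 for Mras, and the MMTR KD line lies nearest 0 for Spink1 at -0.35.

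Naive pluripotency factors fell almost as a whole. Of 21 listed, 19 were measured, by a named kept probe, 17 fell, 0 rose, and the median was -1.93 beside 0.01 over all genes. Counts of list members here and below stand beside 26.0% of all genes that rose and 25.3% that fell. The lists were written with earlier results of these data known, so these counts are descriptions and no independent test. Klf4, a Kruppel-like factor downstream of Stat3, read 11.37, 11.78, 12.32, 11.64 and 11.85 at d0 and 8.19, 9.27, 9.09, 8.37 and 8.69 at d3 (-3.07 ± 0.11, adjusted p = 5.8e-06). The difference was -2.51 in MMTR KD and -3.16 to -3.27 elsewhere, and no d3 library reached a d0 library. Esrrb, an orphan nuclear receptor of the naive network, read 14.56, 15.01, 15.08, 15.02 and 15.03 at d0 and 11.48, 12.82, 13.61, 11.64 and 13.15 at d3 (-2.40 ± 0.26, adjusted p = 0.00025). Here the lines were alike at d0 and apart at d3, with WT and MMTR-C lowest. Klf2 (-1.93 ± 0.34) spread more widely, with -3.00, -1.74, -0.79, -3.09 and -1.04 in the 5 lines, and its d0 and d3 values overlapped.

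The list median was largest in size in MMTR-C and WT and smallest in MMTR-F. By line it was -2.68, -1.88, -0.81, -2.70 and -1.20, with 1 pair of libraries each and so no test of the order. Tfcp2l1, a LIF-dependent factor that maintains naive cells, changed by -2.84, -2.11, -1.63, -3.03 and -2.05. Zfp42 (Rex1), the classical marker of undifferentiated cells, changed by -2.36, -1.93, -0.79, -2.23 and -1.12. Dppa5a, an RNA-binding protein of pluripotent cells (-0.71 ± 0.18), Pdgfa, a growth factor (-1.27 ± 0.26), and Nanog, the homeobox factor of the naive state (-0.83 ± 0.15), fell by less than the list median. Nanog in MMTR KD was nearest 0 (-0.25) and in MMTR-C farthest from it (-1.38).

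Core pluripotency factors, shared by the naive and the primed state, moved less. Of 12 listed, 11 were measured, 6 fell and 1 rose, with a median of -0.41. Pou5f1 (Oct4), the POU factor without which pluripotency is lost, read 13.11, 13.44, 13.26, 13.18 and 13.22 at d0 and 13.23, 12.87, 13, 13.15 and 12.56 at d3. The groups overlapped, and its difference of -0.28 ± 0.11 did not pass the test (limma adjusted p = 0.076), though it did without WT. Sox2, its partner, fell by 0.88 (-0.55 in MMTR-N to -1.13 in MMTR-C), Tdgf1, the Nodal co-receptor Cripto, by 1.14, and Dppa2 by 0.73. Sall4, a zinc finger factor, was the member that rose (0.36, adjusted p = 0.040), its second probe had -0.32, and the call was lost without any of WT, MMTR KD, MMTR-F or MMTR-C. All 11 listed ESC markers were measured, 6 of them fell and 2 rose.

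LIF and Stat3 response genes moved in both directions. Of 15 listed, 12 were measured, 7 fell and 2 rose (median -0.35, or 0.01 without normalization). List medians without normalization, here and below, stand beside 0.27 for all genes at that setting. Socs3, the feedback inhibitor of the LIF receptor complex, read 11.53, 12.06, 11.64, 12.37 and 11.63 at d0 and 9.04, 8.99, 8.51, 9.13 and 9.03 at d3 (-2.91 ± 0.12, adjusted p = 8.3e-06). Stat3 had differences of -1.70 to -1.25, and Pim3, a kinase gene induced by LIF, of -2.17 to -1.43. These 3 genes fell in every line, with no overlap between the days. Irf1, a transcription factor of the interferon response, went the other way, from 10.47, 11.37, 10, 10.67 and 10.28 to 12.25, 12.38, 11.93, 12.93 and 13.03 (1.95 ± 0.21, adjusted p = 0.00024), and the lowest of its 4 probes had 0.35. Jak1 rose by 1.03 on its brighter probe, whereas its other kept probe fell by 0.24.

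Stat3 binds the palindrome TTCNNNGAA, which reads the same on both strands. Among RefSeq promoters (GRCm38.p6, 250 bases before to 50 after the start), 8.30% of 32851 hold it. Of 13 promoters found for 11 of the measured LIF response genes, 3 hold it, those of Socs3, Irf1 and Cish, an inhibitor of cytokine signaling whose difference (-0.20) did not pass the test and which was chosen here for its match. Stretches around the matches, with the motif in capitals, are shown because these genes share the letters and not the direction of change. They lie at chr11:117969472-117969560 (minus strand), chr11:53769884-53769972 (plus strand) and chr9:107296619-107296708 (plus strand).
Socs3: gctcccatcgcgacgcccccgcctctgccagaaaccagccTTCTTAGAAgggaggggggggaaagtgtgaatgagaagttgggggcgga
Irf1: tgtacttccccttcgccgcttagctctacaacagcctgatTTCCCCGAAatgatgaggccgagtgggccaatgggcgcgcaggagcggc
Cish: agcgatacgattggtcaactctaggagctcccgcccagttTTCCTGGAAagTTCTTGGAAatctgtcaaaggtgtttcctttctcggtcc
Cish holds 2 copies. The motif was in 7.33% of 2495 promoters of genes that fell and in 6.36% of 2564 of genes that rose, neither above the share over all promoters.

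**Figure D2:**
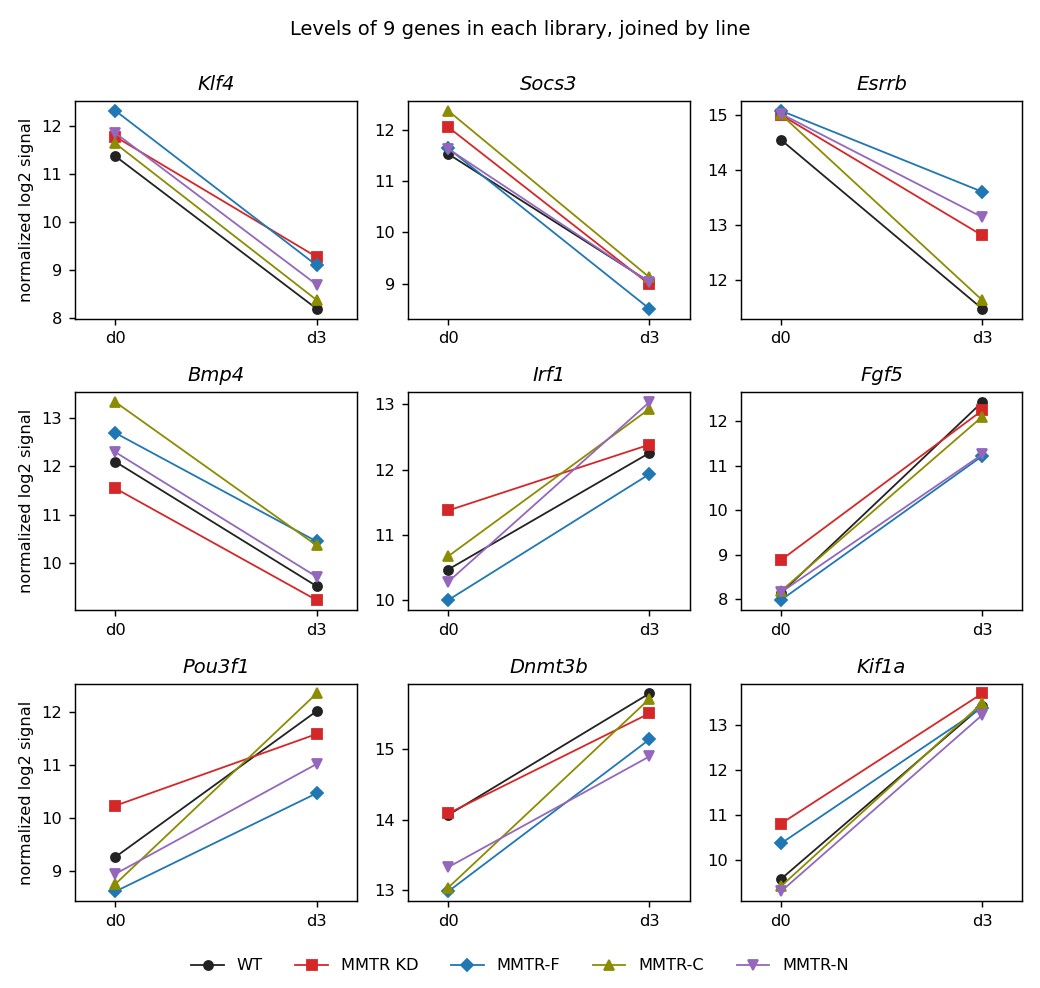
Normalized log2 signal at d0 and d3 of 9 genes, with each line's 2 libraries joined (symbols and colors give the line). Klf4 and Socs3 are lower at d3 in all lines, Esrrb ends between 11.48 and 13.61, and Irf1, Fgf5, Pou3f1, Dnmt3b and Kif1a are higher at d3 in every line.

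Genes of the primed epiblast rose. Of 21 listed, 15 were measured, 13 rose and 2 fell, with a median of 1.91. Pou3f1 (Oct6), a POU factor of the postimplantation epiblast and neural plate, read 9.27, 10.24, 8.62, 8.76 and 8.95 at d0 and 12.02, 11.59, 10.47, 12.35 and 11.02 at d3 (2.32 ± 0.28, adjusted p = 0.00040). Otx2, which directs Oct4 to primed enhancers, read 11.26, 11, 10.54, 9.98 and 10.47 at d0 and 13.24, 12.90, 12.77, 13.38 and 12.36 at d3 (2.28 ± 0.21, adjusted p = 0.00012). For both genes MMTR-C was among the lowest at d0 and the highest at d3. Sall2, a zinc finger factor, rose by 3.16 in WT and 3.10 in MMTR-C and by 1.63 to 1.79 in the other 3 lines, and Esrp1, an epithelial splicing regulator, by 1.55 in WT to 2.65 in MMTR-F.
The members that fell were Etv4, an ETS factor downstream of FGF signaling (-1.20 ± 0.16), and Dnmt3l, a cofactor of de novo methylation. Dnmt3l read 14.86, 12.85, 13.75, 14.03 and 14.84 at d0 and 12.69, 11.74, 14.29, 13.04 and 14.12 at d3 (-0.89 ± 0.31, adjusted p = 0.043). It was 0.53 higher at d3 in MMTR-F and lower in the others, and its call was lost without WT, MMTR KD, MMTR-C or MMTR-N. Per line the list's medians were 1.55, 1.35, 1.75, 2.14 and 1.57.

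Signaling pathways did not move as blocks. In the Nodal pathway, which patterns the early embryo, 11 of 14 listed genes were measured, 5 rose and 2 fell (median 0.24). Nodal, the ligand, read 11.50, 10.58, 11.15, 11.38 and 11.35 at d0 and 10.21, 11.32, 12.26, 11.29 and 12.59 at d3, lower at d3 in WT and more than 0.5 higher in 3 lines. Its mean difference of 0.34 ± 0.33 did not pass (limma adjusted p = 0.42) except without WT, nor did that of its inhibitor Lefty1 (0.09 ± 0.51, adjusted p = 0.90). Lefty2, the second inhibitor, had -2.20, -0.16, -0.70, -2.07 and -0.65 in the 5 lines (-1.16 ± 0.29, adjusted p = 0.013). Pcsk6, a convertase that processes Nodal, fell (-1.46), while Furin, another such convertase (0.89), and Skil, a repressor bound to Smads (1.20), rose in every line.

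In FGF and ERK signaling, 12 of 16 were measured, 4 rose and 5 fell (median -0.07, or 0.21 without normalization). Dusp4, a phosphatase that removes phosphate from ERK, rose in each line, least in MMTR-N (0.96) and most in MMTR-F (3.40) (2.06 ± 0.29, adjusted p = 0.00084). Fgf8, a ligand of the primitive streak and the epiblast, read 8.04 to 8.41 at d0, where 2 of 5 libraries detected it, and 8.76, 10.49, 9.60, 9.02 and 10.49 at d3 (1.47 ± 0.26). Fgfr2 rose by 0.89 ± 0.25, with WT at -0.04 and MMTR-F at 1.84, and its call was lost without MMTR-N. The immediate early genes Egr1 (-1.41 ± 0.27) and Fos (-0.92 ± 0.10), which ERK activity switches on within minutes, fell.

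Bmp4, the ligand that together with LIF sustains mouse ESCs, read 12.09, 11.54, 12.69, 13.33 and 12.29 at d0 and 9.52, 9.23, 10.45, 10.36 and 9.72 at d3 (-2.53 ± 0.10, adjusted p = 8.3e-06). The difference lay between -2.96 and -2.24, with no overlap. Across the BMP list, 11 of 14 were measured, 3 rose and 3 fell (median 0.04). Of the Id genes, targets of BMP that block helix-loop-helix factors, Id4 fell by 0.62, and Id1 (-0.83 ± 0.29, adjusted p = 0.043) had -1.34, 0.16, 0.06, -1.90 and -1.13 in the 5 lines. The Id1 call was lost without WT, MMTR-C or MMTR-N. Smad1, which carries the BMP signal, rose by 0.56, with its other probe at 0.07.

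Wnt signaling counted 14 of 20 measured, with 7 higher and 2 lower (median 0.25). The receptor Fzd7 rose (1.64 ± 0.13), whereas the receptor Fzd5 (-1.82 ± 0.13) and Sfrp1, a secreted Wnt antagonist (-1.46 ± 0.11), fell. Axin2, a feedback inhibitor whose transcription reports Wnt activity, went from 9.36, 9.32, 9.06, 8.91 and 9.27 to 9.82, 11.04, 10.36, 9.91 and 10.45 (1.13 ± 0.15, adjusted p = 0.00066). WT had the smallest rise (0.46) and MMTR KD the largest (1.72).

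**Figure D3:**
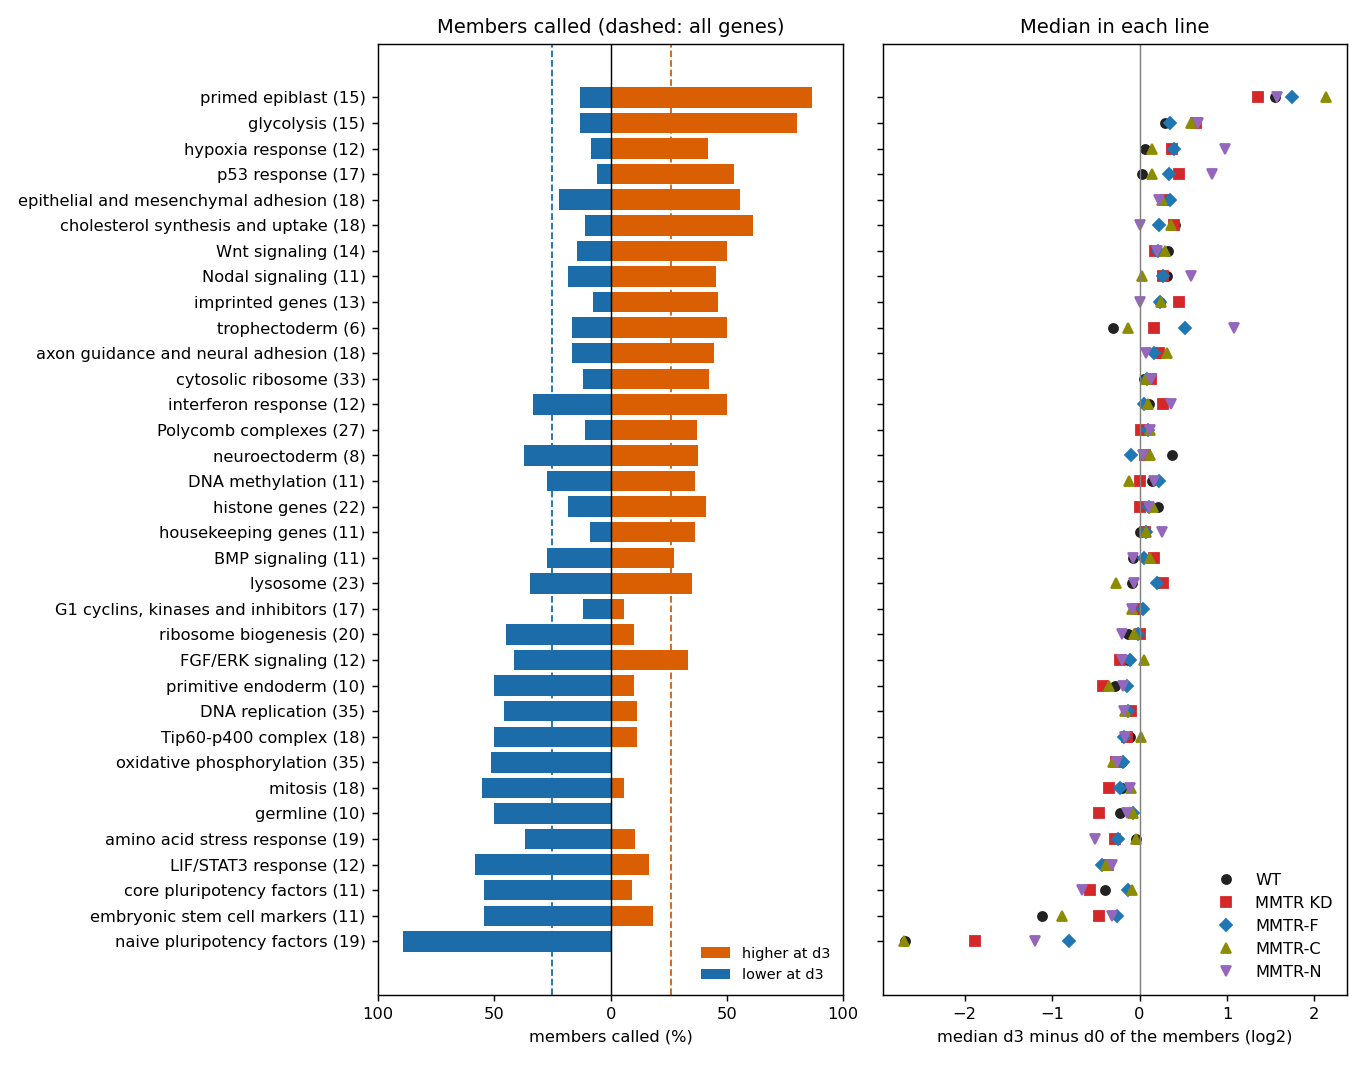
Left, share of the measured members of each gene list (number in brackets; lists with 6 or more) that were higher or lower at d3 by limma, with the shares over all genes as dashed lines (26.0% and 25.3%). Right, median log2 difference of the members in each line, which spreads over the lines from -2.70 to -0.81 for naive factors.

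Of DNA methylation genes, 11 of 16 were measured, 4 rose and 3 fell. Dnmt3b, a de novo methyltransferase, read 14.07, 14.09, 12.98, 13.03 and 13.32 at d0 and 15.79, 15.51, 15.14, 15.72 and 14.90 at d3 (1.91 ± 0.17, adjusted p = 0.00010). Tet1, which oxidizes methylcytosine and is high in naive cells, fell in every line (-1.29 ± 0.12), with differences from -1.63 to -0.82, and Mbd2, a reader of methylated DNA, rose (0.82 ± 0.11). Of 31 Polycomb genes, 27 were measured, 10 rose and 3 fell (median 0.12). Eed, the subunit of PRC2 that reads its own mark, fell least in MMTR KD (-0.45) and most in MMTR-N (-1.48) (-1.03 ± 0.14, adjusted p = 0.00070), and Rnf2, the ubiquitin ligase of PRC1, by 0.55, while the PRC1 subunits Pcgf5 (0.73, a call lost without MMTR-F) and Yaf2 (0.56) rose.

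Of 19 subunits of the Tip60-p400 complex, 18 were measured, 9 fell and 2 rose, with a median of -0.17 that became 0.13 without normalization, where the median of all genes was 0.27. Actl6a (-0.62 ± 0.06) and the scaffold Trrap (-0.42 ± 0.09) fell furthest. Yeats4 (0.33, other probe 0.07) and the acetyltransferase Kat5 (Tip60, 0.18 ± 0.06, adjusted p = 0.037) rose, and the Kat5 call was lost without any of WT, MMTR KD, MMTR-F or MMTR-C. Dmap1 itself (-0.21 ± 0.07, adjusted p = 0.031) had its lowest difference in MMTR KD (-0.39) and its highest in MMTR-C (-0.00), and its call was lost without any line but MMTR-C. Of 22 measured histone genes, 9 rose and 4 fell, among them H4c1 (0.80) and the variant gene H2az1 (-0.51), and a probe may read several of these similar genes.

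Genes of energy metabolism divided by pathway. Of 22 glycolysis genes, 15 were measured, 12 rose and 2 fell (median 0.49). Tpi1, triose phosphate isomerase, read 13.18, 13.75, 13.54, 13.22 and 12.96 at d0 and 14.19 to 14.45 at d3 (1.01 ± 0.10, adjusted p = 0.00018). Pfkm, the muscle phosphofructokinase, rose by 1.18 ± 0.09 and the glucose transporter Slc2a1 by 0.96 ± 0.13, and all 3 were higher in 5 of 5 lines with no overlap. Of the 3 kept probes each of Tpi1 and Pfkm, the lowest had 0.03 and 0.05. Pfkp, the platelet isoform of phosphofructokinase, fell (-0.88 ± 0.18), most in WT (-1.54) and least in MMTR-N (-0.25). Of 12 measured genes of the hypoxia response 5 rose and 1 fell. Ddit4 read 9.64, 8.70, 9.42, 9.37 and 9.72 at d0 and 11.17, 10.95, 12.27, 12.04 and 12.86 at d3, and Egln3, an oxygen-sensing hydroxylase, rose least in WT (0.69) and most in MMTR-N (2.71), while the histone demethylase Kdm3a fell (-0.94 ± 0.13, its 4 probes from -0.94 to -0.07).

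Subunits of oxidative phosphorylation showed 18 of 35 measured genes lower and 0 higher (41 listed, median -0.19). Atp5a1, a subunit of the ATP synthase, fell on its brighter probe (-1.15 to -0.99 by line), whereas its other kept probe rose by 0.28. Ndufb5, of complex I, fell with differences of -0.89 to -0.61. When arrays were instead centred on their medians, 32 members were lower, and over all alternatives for processing the count ran from 4 to 32. Cholesterol synthesis and uptake had 18 of 25 measured, 11 higher and 2 lower (median 0.29). Msmo1 (1.24 ± 0.13), Sqle, squalene epoxidase (1.19 ± 0.11), and Cyp51 (1.11 ± 0.13), which act between squalene and cholesterol, rose in every line, each least in MMTR-N (0.71, 0.78 and 0.47), whereas the isomerase Ebp fell (-0.51). Of 23 measured lysosomal genes 8 rose and 8 fell, with a median of 0.01. Besides Laptm5, Glb1, the lysosomal beta-galactosidase, fell (-0.84, other probe -0.14), and the sialidase Neu1 rose (1.16).

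Of 35 measured DNA replication genes, 16 fell and 4 rose (median -0.15), and of 18 mitotic genes 10 fell and 1 rose (median -0.19). Over the alternatives for processing, the count that fell ran from 1 to 25 for replication and from 1 to 12 for mitosis. Pcna, the sliding clamp of DNA polymerases, read 10.13, 9.79, 9.96, 10.21 and 9.94 at d0 and 9.30, 9.18, 9.33, 9.35 and 9.08 at d3 (-0.76 ± 0.06, adjusted p = 7.6e-05). Tpx2, a spindle assembly factor, had differences of -0.84 to -0.65. Mcm7 (0.50 ± 0.12), of the replicative helicase, and Cenpf (0.21 ± 0.05), a kinetochore protein, went up, with second probes at -0.00 and -0.02. Of 17 measured G1 genes 1 rose and 2 fell. Ccnd3, a D-type cyclin, fell by 1.10, most in MMTR KD (-1.70), and the inhibitor Cdkn1b rose by 0.31.

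Ribosome biogenesis had 9 of 20 measured genes lower and 2 higher, with Tcof1, a factor of ribosomal RNA transcription, at -0.82 and the nucleolar protein Ncl at 0.63. The list median turned without normalization, where the median of all genes was 0.27. Of 33 measured cytosolic ribosomal protein genes 14 rose and 4 fell, led by Rpl22 (0.75) and Rpl13a (0.66). That list depended on the scaling, since 4 rose and 9 fell with median centring, where its median was -0.02 instead of 0.15. Of 17 measured p53 response genes, 9 rose and 1 fell (median 0.32). Apaf1, the core of the apoptosome, rose least in WT (0.40) and most in MMTR-N (1.40), and Pmaip1 (Noxa), an inducer of apoptosis, by 0.76. The list median was 0.02 in WT and 0.82 in MMTR-N. Sesn2 (-0.28, adjusted p = 0.031) fell, a call lost without WT, MMTR KD or MMTR-C. In the amino acid stress response, 19 were measured, 7 fell and 2 rose. Asns, asparagine synthetase, fell in each line (-1.11 to -0.58), and Cebpb, a C/EBP factor, rose in each (0.79 ± 0.07).

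Adhesion genes changed on both sides. Of 27 epithelial and mesenchymal genes, 18 were measured, 10 rose and 4 fell (median 0.31). Cldn6 read 10.78, 10.49, 10.09, 9.88 and 9.96 at d0 and 12.68, 12.28, 12.10, 12.51 and 12.56 at d3, with no overlap, and the keratin genes Krt8 (0.97) and Krt18 (0.96) rose. Vim, the intermediate filament of mesenchymal cells (-1.27 ± 0.07), Zeb1, a repressor of epithelial genes (-1.16 ± 0.05), and Fn1, fibronectin (-1.03 ± 0.14), fell in every line. The junction gene Tjp1 was also lower (-0.41), whereas the mesenchymal factors Twist1 (0.46), Zeb2 (0.37) and Snai1 (0.29) were higher. Among 18 measured genes of axon guidance, 8 rose and 3 fell. Epha1, an ephrin receptor (1.96 ± 0.11), Sema6a, a semaphorin (1.49 ± 0.11), and Efna5, an ephrin (1.11 ± 0.07), rose in all lines, and Dpysl3 fell (-1.03). Of 12 measured interferon response genes 6 rose and 4 fell, with Bst2, tetherin (0.88), and the class I gene H2-D1 (0.87) among the former and Ifitm2 (-0.75) among the latter. Imprinted genes had 6 of 13 measured members higher, such as Gnas (0.82) and Peg3 (0.78), and 1, Phlda2 (-0.62), lower.

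Germ layer genes were measured in part. Of 18 mesendoderm and mesoderm genes 2 had a named kept probe, and T, Eomes, Kdr and Sox17 had none. Since 3494 kept probes had no name, failing the filter and lacking a name cannot be told apart for such genes. Mixl1, a factor of the primitive streak, was 0.33 higher (adjusted p = 0.033), detected in 2 of 5 d0 and 4 of 5 d3 libraries, with MMTR KD highest at 9.14. That call was lost without WT, MMTR-F or MMTR-N. Of 20 neuroectoderm genes 8 were measured, 3 rose and 3 fell, and Pax6 and Sox1 had no named kept probe. Nes, nestin, rose by 0.47 ± 0.13, with 0.92 in WT and 0.03 in MMTR KD and the call lost without WT or MMTR-C. Of the neuronal genes, Kif1a, given above, and Map2 (0.68) rose as well. Ncam1 (-1.20, detected in 2 of 5 d3 libraries), Gap43 (-0.77) and Stmn2 (-0.71) were lower.

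Markers of cell types that leave the epiblast lineage were mixed as well. Of 18 primitive endoderm genes 10 were measured, 5 fell and 1 rose. Their median turned without normalization, where the median of all genes was 0.27. The defining factors Gata4 and Gata6 had no named kept probe. Lama1 read 11.67, 12.08, 11.26, 11.73 and 12.16 at d0 and 8.73, 10.58, 8.49, 8.71 and 8.67 at d3, with MMTR KD apart at d3. Lamc1, another laminin chain, fell by 1.11, Sox7 fell by 0.86 on its brightest probe and had a probe that rose (0.27), and the endocytic adaptor Dab2 rose by 1.10. Of 13 trophectoderm genes 6 were measured, 3 rose and 1 fell (median 0.21), with Cdx2 and Eomes not among them. Fgfr2, Krt8 and Krt18, given above, rose, Tead4 fell by 0.67, and Tfap2c, a trophectoderm and germ cell factor, was lowest in MMTR-C (-2.31) and highest in MMTR-N (1.14) (-0.67 ± 0.44, adjusted p = 0.24). Of 12 fibroblast markers 4 were measured, with Fbln1 (1.06 ± 0.11, its 5 probes from -0.13 to 1.06) and Thy1 (0.54, a call lost without MMTR KD) higher. The collagen genes Col1a1, Col1a2 and Col3a1 had no named kept probe. Of 11 macrophage markers 1 was measured. Germline genes had 5 of 10 measured members lower, among them Syce1 (-1.11) and Rhox5 (-0.73), and 0 higher. The germline median turned without normalization, where the median of all genes was 0.27. Of 12 genes of the 2-cell-like state 1 was measured (Eif1a, lower). Of 11 measured housekeeping genes 4 rose, among them Gusb (0.62, its 4 probes from 0.02), and 1 fell, Actb (-0.23, its 5 probes from -0.47 to 0.10), a call lost without any line but MMTR-C.

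Genes that the study names for these days moved as follows. Trio, a guanine nucleotide exchange factor, read 9.43 to 10.01 at d0 and 11.88, 11.60, 10.62, 11.78 and 10.73 at d3 (1.67 ± 0.20, adjusted p = 0.00037). Tead2, a partner of the Hippo pathway (1.26 ± 0.15), and the endocytic receptor Lrp2 (1.08 ± 0.22) also rose, both least in MMTR-F or MMTR-N. Grb10 (0.33 ± 0.14, adjusted p = 0.093) and the fatty acid transporter Slc27a2 (0.20 ± 0.22, adjusted p = 0.48) did not pass. Grb10 was 0.94 and 0.62 higher at d3 in WT and MMTR KD and within 0.05 of 0 in the other 3 lines.

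The 5 lines were next compared in their change. Since no library is shared between lines, the differences of any 2 lines are separate measurements. Their correlations across 17775 probes lay between 0.74 (WT and MMTR-F) and 0.88 (WT and MMTR-C), with a median of 0.79 over 10 pairs. Probes are not independent replicates, and a difference between array runs of d0 and d3, if there was one, would be shared by all lines. At a difference of 0.5 or more, the lines had 1655, 1522, 1218, 1674 and 1588 probes higher and 1555, 1424, 1155, 1557 and 1503 lower. On the mean of the other 4 lines, the slope of a line's differences was 1.01, 0.88, 0.80, 1.09 and 0.93. MMTR-F thus had the fewest changed probes and the flattest slope, each from 1 pair of libraries.

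Each line was also held out. Probes called in the other 4 lines by limma moved the same way in the line left out in 95.3%, 95.3%, 94.2%, 96.8% and 93.6% of 7359, 7365, 7521, 7076 and 7675 probes, where 49.0% to 50.1% of all kept probes were above 0. The probes called higher without WT had a median of 0.41 in WT beside 0.40 in the 4 lines used for the call, and those called higher without MMTR-F had 0.33 beside 0.41. The median of lower calls was likewise -0.34 in MMTR-F beside -0.39.

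**Figure D4:**
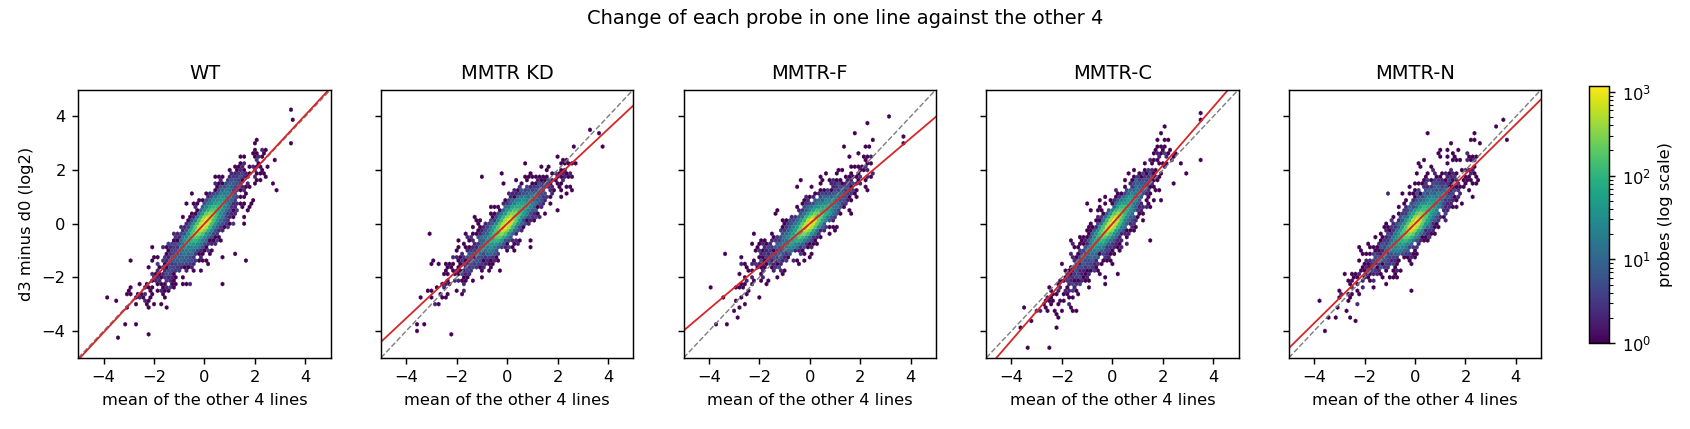
Log2 difference between d3 and d0 of 17775 probes in each line against the mean of the other 4 lines (color, number of probes per hexagon on a log scale). The dashed line marks equal change and the red line the slope through 0, flattest in MMTR-F (0.80) and steepest in MMTR-C (1.09).

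Among 7934 genes detected on all 10 arrays, the 5 differences had a median range of 0.41. The range was widest for Lefty1 (3.88), from -2.24 in WT to 1.64 in MMTR-F, followed by Spink1 (3.77) and Anxa2 (3.47), an annexin that had -1.16 in WT and 2.32 in MMTR-N. Lefty1 read 12.14, 10.88, 11.50, 11.83 and 11.84 at d0 and 9.90, 11.35, 13.14, 11.06 and 13.20 at d3, so its lines lay closer together at d0 than at d3. Chac1, a stress-induced enzyme that degrades glutathione, had the opposite layout, with 13.46 in MMTR-N and 9.45 to 11.18 in the others at d0, and 9.74 to 10.94 at d3. Evx1, a homeobox gene of the primitive streak, was 1.90 higher in MMTR KD at d3 and -0.78 to 0.49 in the other lines. Over all 9401 genes, 69 (0.734%) rose by 0.5 in one line and fell by 0.5 in another. The interaction of line and day could not be tested with 1 library each.

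**Figure D5:**
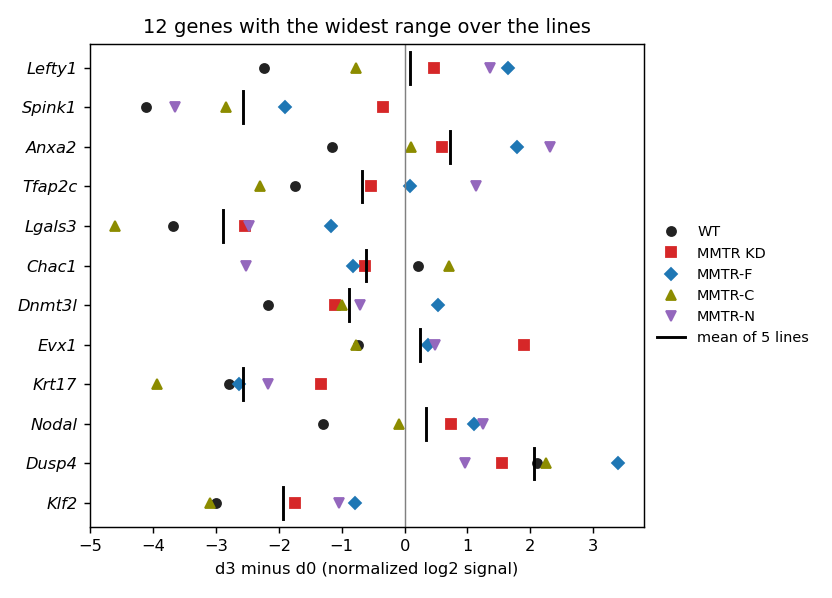
Log2 difference between d3 and d0 in each line for the 12 genes with the widest range over the lines among genes detected on all 10 arrays (bar, mean of 5 lines). Lefty1 spans -2.24 to 1.64 and Anxa2 -1.16 to 2.32, whereas Lgals3, Krt17, Spink1 and Klf2 are below 0 and Dusp4 above 0 in every line.

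Switches between detected and not detected were rare. Of all 45281 probes, 99 (0.219%) were detected in 0 of 5 d0 and 5 of 5 d3 libraries and 416 (0.919%) the other way round, and 13 and 19 named genes had such probes. The drop in detected probes at d3 stands beside the second count. Among the former, Bmx, a nonreceptor tyrosine kinase, was at least 1.20-fold higher, and among the latter Igfbp7, a binding protein of insulin-like growth factors, at least 1.56-fold lower, against the lowest detected signal of each array. Both were chosen after their values were seen, as the ends of these groups by log2 difference (0.38 for Bmx and -0.71 for Igfbp7). By the lowest fold, H2-DMa (1.23) and Irgc1 (1.21) were above Bmx.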

How the data were processed

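RNA of 10 G-CCE mESC libraries, 1 signal column per line and day, was read on bead arrays for mouse from Illumina. Deposited by the authors were probe signal intensities, not normalized, with a detection p-value per probe and array that the authors obtained from the scanner software (BeadStudio 3.2 and lumi per the labels). The authors also deposited a log2 table of 16652 probes. It differed by at most 0.044 from log2 and quantile normalized signals without background correction, although the series text names one. No depth exists for arrays, and their number limits the precision.

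Probes kept (detection p-value up to 0.05 on 5 arrays) were log2 transformed and quantile normalized. limma 3.58.1 (R 4.3.3) fitted the line as a block and the day as the tested term (two-sided, Benjamini-Hochberg over 17775 probes, threshold 0.05, 4 residual degrees of freedom). The pairing comes from the line names, since both libraries of a pair are from the same line. Errors given with ± are standard errors of this fit. The replicates are lines, and nothing says that they were cultured in separate experiments, so p-values measure only the spread between these libraries. The fit was tested on simulated data.

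Of the kept probes, 14281 had 1 gene in the platform annotation and 3494 had none given here. The kept probe with the highest mean signal stood for a gene. Named genes were the 15 largest rises and falls with the same sign in 5 lines, up to 4 called members per list and 2 against its direction, genes the study names, Dmap1 and the 12 widest ranges over lines. The members, lists and rules were chosen with earlier results of these data known. Alternatives covered background correction, normalization, filter, deposited table, variance prior, block, threshold, test, probe choice and leaving out each line.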

Additional observations from a re-analysis of the deposited data

Results flagged for a closer look

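Dixon's criterion (0.71 for 5 values) was applied to the 5 libraries of a day in 300 gene and day groups. In 23 of them, 1 library stood far from the other 4. Chance picks out about 1 in 20 of independent groups. These genes were chosen from the same data and share the same libraries, so the count cannot be compared with that rate. Of the 23 flagged libraries, 15 were MMTR KD libraries, 7 at d0 and 8 at d3, and 6 were MMTR-C libraries. All values are normalized log2 signals.

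At d0, MMTR KD was highest for Fgf5 (8.88), Car4 (9.37), Dab2 (10.74), Pcgf5 (10.78) and Gnas (9.81) and lowest for H2az1 (14.03) and Msmo1 (10.33). At d3, MMTR KD was highest for Gbx2 (11.57), Lama1 (10.58), Spink1 (10.48), Mixl1 (9.14), Stmn2 (11.46), Sox7 (8.81) and H2-D1 (10.81) and lowest for Dusp4 (11.3).

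MMTR-C was highest for Dmap1 on both days (12), and at d3 for Msc (9.28), H4c1 (11.08) and Cenpf (9.26) and lowest for Pmaip1 (8.81). WT was lowest at d0 for Esrrb (14.56), and MMTR-F lowest at d3 for Socs3 (8.51).

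For 8 genes named in the text, 1 line rose by at least 0.5 between d0 and d3 and another fell by at least 0.5. The difference between the lines was not tested, since each has 1 library a day. Dnmt3l had 0.53 in MMTR-F and -2.17 in WT, Lefty1 1.64 in MMTR-F and -2.24 in WT, and Nodal 1.24 in MMTR-N and -1.29 in WT. Anxa2 had 2.32 in MMTR-N and -1.16 in WT, and Tfap2c 1.14 in MMTR-N and -2.31 in MMTR-C. Evx1 had 1.90 in MMTR KD and -0.78 in MMTR-C. Chac1 had its highest value in MMTR-C (0.71) and its lowest in MMTR-N (-2.53), and Slc27a2 had 0.91 in MMTR-C and -0.81 in MMTR KD.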

How the results depend on the processing

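Without normalization between arrays, 10698 probes were higher and 1540 lower, so that 87.4% of calls were higher, against 49.2% in the fit reported. The median of all genes was then 0.27, and 554 probes were called the other way. With median centring 5797 were higher and 4821 lower. At an adjusted p under 0.01, 2746 were higher and 2856 lower, and with a log2 difference of 0.5 as well as an adjusted p under 0.05, 1268 and 1172. Without the replicate block, which ignores the pairing by line, 3368 were higher and 3551 lower. Leaving out a line gave 3469 to 3818 higher and 3607 to 3857 lower, with 48.9% to 49.7% of calls higher. These fits kept the quantile normalized values, so that share is no separate check of the balance.

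Counts per line moved too. At a log2 difference of 1 the lines (WT, KD, F, C, N) had 808, 588, 461, 813 and 708 probes. After background correction with inferred controls, chosen after seeing the data, they had 7533, 7350, 6786, 7638 and 7439 at 0.5. With calls at an adjusted p under 0.01, the shares moving the same way in the line left out were 98.3%, 98.4%, 97.4%, 99% and 97.0%.

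Of 150 genes named in the text, 109 kept their direction and side of the threshold under all 23 settings, and 0 of the 140 called reversed. For probe choice, the setting was the mean of all probes of a gene, not each probe alone. Of 3418 genes with 2 or more kept probes, 131 had probes called in opposite directions, among them Jak1, Atp5a1 and Sox7. The most calls were lost under the methods' test with Benjamini-Hochberg adjustment (29), at an adjusted p under 0.01 (18) and without the replicate block (15).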
